A study of Mus musculus with 6 samples.

Results

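The interstitial matrix is the collagenous and elastic network between the cells of a tissue, and 42 genes that build, cross-link or sense it were followed in whole mouse uteri. They were taken from a list of gene symbols made for this comparison, with the secreted protein cochlin (*Coch*) added, and all 42 were found among the 56748 genes of the files and passed the filter on low counts, *Has1* only through its control values. RNA was sequenced from 3 control and 3 *Gp130* ecKO uteri, collected at 1600 h on day 4 of pregnancy, when the mouse uterus becomes ready for embryo attachment. Per the labels the controls were WT and the others Gp130 conditional knockout, all on the C57BL/6 background (C57BL/6J in the study's methods). In the study's methods, the knockout females were Ltf iCre/+;Gp130 flox/flox and older than 8 weeks, and controls were Ltf+/+;Gp130 flox/flox or wild type. *Gp130* (*Il6st*) encodes the shared signalling receptor of the leukemia inhibitory factor (LIF) family, and Ltf drives Cre mainly in the uterine epithelium of adult females but also in some immune cells, so that the stroma was not its target. The labels do not say that each library came from a separate animal, and p-values below measure only the spread between these libraries.

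Fibrillar collagens I, III and V form the tensile fibres of the endometrial stroma, and small leucine-rich proteoglycans sit on their surface and set their width and spacing. Elastin and the fibrillin microfibrils give recoil, lysyl oxidases cross-link both networks, and versican with hyaluronan holds water between them. In pregnancy the stroma around the implanting embryo is remodelled as it decidualizes, with loosening and thickening of its collagen fibres. Cochlin is best known from the inner ear, where its mutation causes hearing loss, and it has been described in the uterus as a gene that responds to LIF. The study itself reported *Coch* as significantly lower in *Gp130* ecKO from these same libraries.

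The libraries held 13960748 to 25906443 expected counts, and control 3 was the shallowest. Levels are given as CPM, the counts of a gene scaled to the TMM-corrected library size, which compare 1 gene between uteri, or as TPM, which also take transcript length into account and compare genes. Control values stand first and ecKO values after "against", each in the order of replicates 1, 2 and 3. A gene was called when edgeR's quasi-likelihood test gave a Benjamini-Hochberg adjusted p under 0.05 over the 16605 genes tested and a change of more than 2-fold. *Il6st* itself was at 631, 678 and 452 CPM in the controls, against 388, 349.8 and 362 CPM in *Gp130* ecKO, with a log2 fold change of -0.68 (SE 0.21, edgeR adjusted p = 0.120). DESeq2 gave it -0.67 with an adjusted p of 0.0352, and scaled to stromal markers in place of TMM it was at 0.0093 (edgeR adjusted p = 0.988), where the median of all genes was 0.65. The *Il6st* groups did not overlap with TMM, and the remaining level includes cells in which the gene was not targeted. On the first dimension of a scaling plot of all genes, control 2 stood at 0.03, between the other two controls (both 2.08 or above) and the ecKO uteri (-1.32 or below). For many of the genes the range of the log2 fold change with 1 uterus left out is given beside it.

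Most matrix genes stood lower in the *Gp130* ecKO uteri, but only *Coch* passed the threshold by edgeR's quasi-likelihood test. Since the study had already reported *Coch* as lower in these libraries, its call is not an independent finding. Of the 42 genes, 1 was called lower and 0 higher, against 0.157% of all genes called in either direction. At an unadjusted p under 0.05 (edgeR), 20 of 42 were lower, or 47.6%, against 12.9% of all genes, and 1 was higher, or 2.38%, against 12.1%. The 3 control and 3 ecKO values did not overlap for 18 of the 42 in the lower direction (42.9%, against 15.6% of all genes) and for 1 in the higher direction (*Thbs1*, against 15.7%). By DESeq2 at an adjusted p under 0.05, 12 were lower (28.6%, against 6.59%) and 0 higher (against 6.73%); these were *Coch*, *Col5a1*, *Col5a3*, *Col14a1*, *Col16a1*, *Has1*, *Fbn2*, *Mfap2*, *Loxl1*, *Sparc*, *Thbs2* and *Pdgfrb*. Leaving out *Has1*, which reached the filter on low counts only through the controls, 19 of 41 were lower at an unadjusted p under 0.05 (46.3%), 17 did not overlap (41.5%) and 11 were lower by DESeq2 (26.8%). The median log2 fold change was -0.86 over the 42 genes and -0.05 over all genes tested. Without control 2 the genes lower at an unadjusted p under 0.05 came to 11 of 42 (26.2%, against 13.1% of all genes), and without ecKO 1 to 12 of 42 (28.6%, against 7.8%). The 42 genes are not independent of each other, since cells of the same kind express many of them. Scaling to stromal markers instead of by TMM moved the median of all genes from -0.05 to 0.65. It left 26 of the 42 below 0 in place of 39, but 39 of the 42 lay below the median of all genes under either scaling. With it only *Coch* and *Has1* (lower) and *Thbs1* (higher) still had groups that did not overlap. Of all genes, 1.89% then did so in the lower direction and 40.9% in the higher. In whole uteri, fewer cells of a type and less RNA per cell cannot be told apart.

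**Figure D1:**
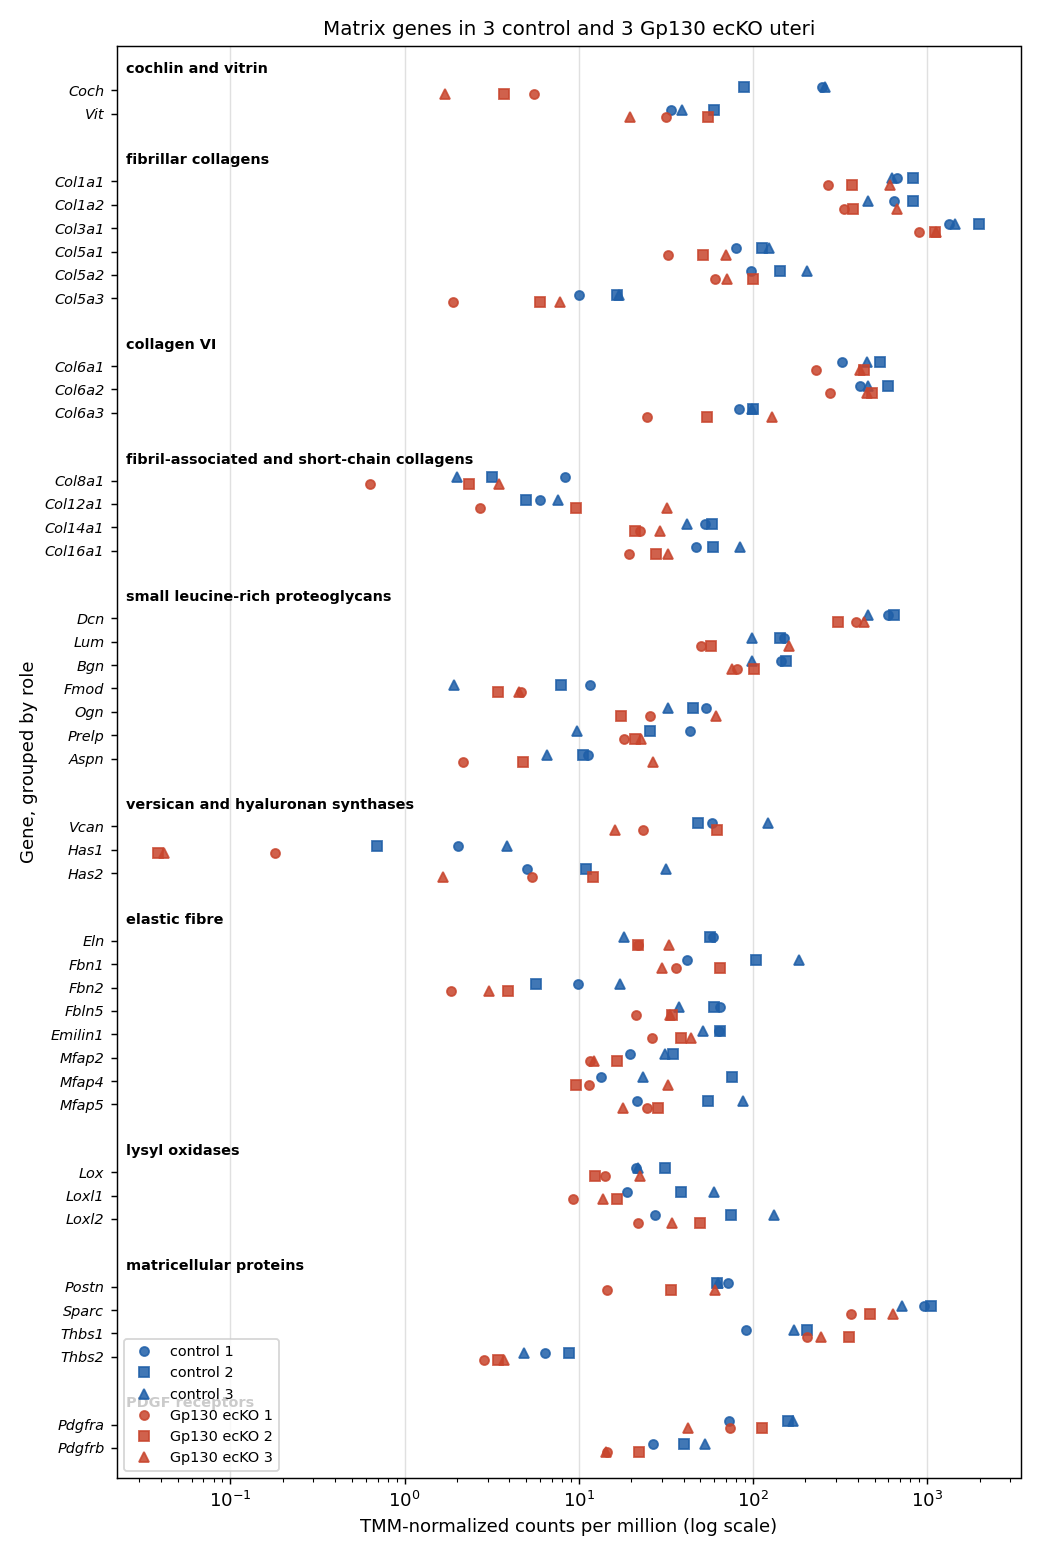
CPM of each of the 42 matrix genes on a log axis, with the 3 control uteri in blue and the 3 *Gp130* ecKO uteri in red and the symbol shape giving the replicate. *Coch* and *Has1* lie far to the left in the ecKO uteri, 18 genes in all have every ecKO point below every control point with this scaling (2 when scaled to stromal markers), and *Thbs1* has every ecKO point above. Of all genes, 15.6% lay lower and 15.7% higher in this way with TMM, and 1.89% and 40.9% with the stromal scaling.

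The sequence upstream of the gene start is printed for the 4 genes on which the results turn. *Coch* and *Has1* had the greatest fold differences, *Vit* is the gene most akin to *Coch* in domain make-up, and *Thbs1* went the other way. Each window covers the 250 bases before the annotated start in GENCODE M39 on build GRCm39, read 5′ to 3′ on the strand of the gene. The windows lie at chr12:51639644-51639893, plus strand (*Coch*), chr17:78815193-78815442, plus strand (*Vit*), chr17:18075468-18075717, minus strand (*Has1*) and chr2:117941724-117941973, plus strand (*Thbs1*). Capitals mark matches, on either strand, to TTCNNNGAA (a STAT consensus, the factor family activated by GP130), TGANTCA (AP-1), AGGTCA (an oestrogen receptor half-site) or AGNACA (a progesterone receptor half-site).
Coch: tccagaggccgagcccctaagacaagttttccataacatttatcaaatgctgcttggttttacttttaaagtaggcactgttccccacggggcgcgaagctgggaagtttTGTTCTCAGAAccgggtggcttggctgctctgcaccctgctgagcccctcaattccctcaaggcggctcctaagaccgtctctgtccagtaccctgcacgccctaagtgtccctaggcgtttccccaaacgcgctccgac
Vit: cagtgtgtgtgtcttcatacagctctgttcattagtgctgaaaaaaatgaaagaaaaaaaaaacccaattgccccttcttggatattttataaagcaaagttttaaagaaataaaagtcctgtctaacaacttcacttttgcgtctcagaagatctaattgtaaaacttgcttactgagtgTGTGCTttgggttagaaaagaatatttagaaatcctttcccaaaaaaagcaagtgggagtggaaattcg
Has1: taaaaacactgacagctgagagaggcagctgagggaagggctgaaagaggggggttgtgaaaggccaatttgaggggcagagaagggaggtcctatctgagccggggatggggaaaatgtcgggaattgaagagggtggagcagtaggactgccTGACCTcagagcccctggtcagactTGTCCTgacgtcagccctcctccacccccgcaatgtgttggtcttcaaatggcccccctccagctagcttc
Thbs1: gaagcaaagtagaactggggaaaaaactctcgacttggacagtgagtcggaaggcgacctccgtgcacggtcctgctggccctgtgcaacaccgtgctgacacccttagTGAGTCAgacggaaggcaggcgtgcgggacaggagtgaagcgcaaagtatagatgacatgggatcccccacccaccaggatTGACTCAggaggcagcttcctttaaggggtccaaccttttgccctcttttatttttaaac

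The *Coch* window held 1 match to TTCNNNGAA, which began 138 bases before the gene start and overlapped a match to AGNACA. TTCNNNGAA occurred in 3 of the 42 matrix windows (*Coch*, *Fbn1* and *Mfap5*; 7.14%) and in 7.82% of the 21770 protein-coding windows of the same length. The stricter form TTCCNGGAA occurred in 0 of the 42 and in 0.96% of all windows. TGANTCA occurred in 1 of the 42, where the *Thbs1* window held 2 matches, and in 6.46% of all. AGGTCA occurred in 4 of 42 (9.52%, against 13.87%) and AGNACA in 17 of 42 (40.5%, against 45.7%). These are matches of letters in a short window and say nothing about binding.

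*Coch* (ENSMUSG00000020953), at chr12:51639894-51653316 on the plus strand, was close to absent in the ecKO uteri. It was at 249, 89.3 and 259 CPM in the controls, against 5.56, 3.73 and 1.70 CPM in *Gp130* ecKO. Every ecKO value lay far below the lowest control value, and control 2 was itself well under the other two controls. *Coch* fell by 5.77 on the log2 scale, a 54.4-fold difference (SE 0.60 in log2, edgeR adjusted p = 0.0337). Leaving out 1 uterus at a time gave log2 fold changes from -6.18 to -5.39, and the adjusted p then ran up to 0.128, so that the call was lost in 5 of the 6 cases and kept without control 2. Over the 18 alternatives planned for it the adjusted p ran from 3.37e-24 to 0.128, and 11 were under 0.05. *Coch* stood eighth among the 42 genes by mean TPM in the controls (110, SD 54.1, n = 3) and at rank 36 in the ecKO (2.21, SD 1.21, n = 3). Part of the gene (2.84% of its 75-base stretches) is also found on the opposite strand of another annotated gene, and whether RSEM used strand is not stated in the sources used here.

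The gene with the same pairing of an LCCL domain and von Willebrand factor A domains, vitrin (*Vit*, ENSMUSG00000024076, at chr17:78815443-78934840), had overlapping groups. It was at 33.7, 60.04 and 39.3 CPM in the controls, against 31.5, 55.4 and 19.7 CPM in the ecKO. The groups overlapped, ecKO 2 being higher than 2 of the controls, and the log2 fold change was -0.32 (SE 0.39, adjusted p = 0.631). It ran from -0.79 without ecKO 2, when the groups no longer overlapped, to -0.0032 without control 2 and -0.0027 without ecKO 3. The 4 other genes with an LCCL domain that were listed were tested, and 0 were called by edgeR (1 lower by DESeq2 at an adjusted p under 0.05, against 6.59% of all genes). At an unadjusted p under 0.05 (edgeR) 2 of them were lower, against 12.9% of all genes: *Dcbld1* had a log2 fold change of -1.35 and *Dcbld2* of -1.001, with adjusted p of 0.0996 and 0.171. Of the 4 nearest protein-coding genes beside *Coch* on chromosome 12, named after their values were seen, 0 reached an unadjusted p under 0.05 (edgeR). *Strn3* lies 585 bases beyond it on the other strand and had a log2 fold change of 0.33 (SE 0.17, edgeR adjusted p = 0.263), with the groups not overlapping and the ecKO higher. *Scfd1*, *G2e3* and *Ap4s1* had 0.09, 0.29 and -0.03 with overlapping groups. Of the 4 beside *Vit*, *Crim1* (-1.18) and *Fez2* (-0.51) were lower in every ecKO uterus than in every control, and *Strn* (0.40) and *Heatr5b* (0.45) were higher (edgeR adjusted p = 0.153, 0.141, 0.166 and 0.255 in that order). Their unadjusted p (edgeR) were 0.0263, 0.0215, 0.0322 and 0.0835 in the same order. Of all genes, 12.9% were lower and 12.1% higher at an unadjusted p under 0.05.

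**Figure D2:**
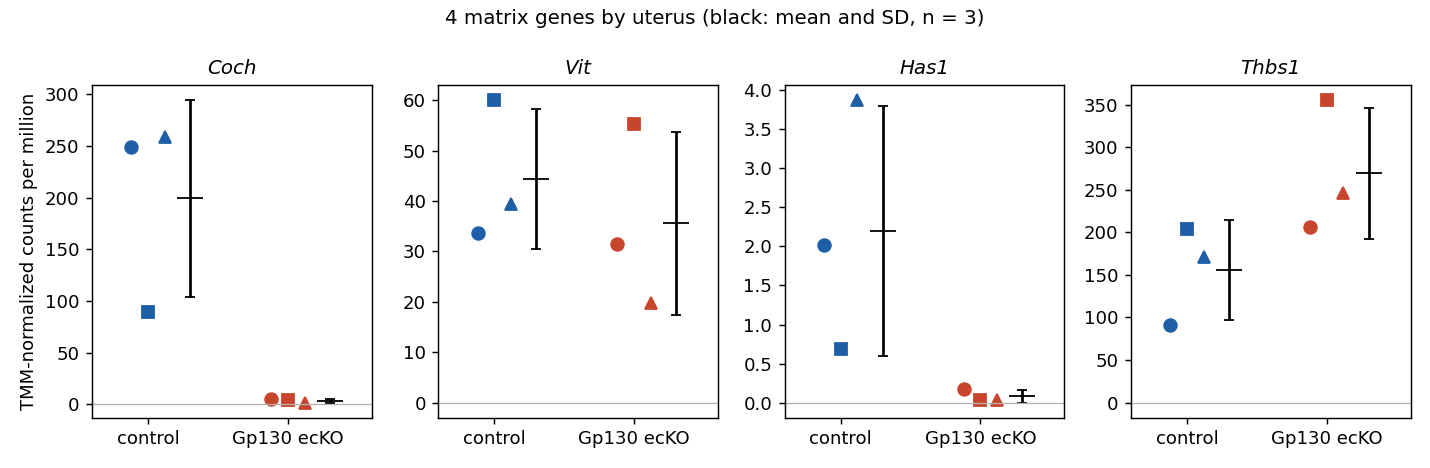
CPM of *Coch*, *Vit*, *Has1* and *Thbs1* in each uterus on linear axes from 0, control in blue and *Gp130* ecKO in red, with the mean and SD of each group in black (n = 3). The ecKO points of *Coch* (5.56 CPM or less) and *Has1* (0.181 CPM or less) lie near 0, *Vit* overlaps and *Thbs1* is higher in the ecKO.

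Fibrillar collagens include the most abundant collagen gene here, *Col3a1*, and 4 of the 6 had groups that did not overlap, all lower in the ecKO (15.6% of all genes did so in that direction). *Col1a1*, the main chain of type I collagen, was at 671, 828 and 633 CPM in the controls, against 269.5, 368 and 616 CPM in the ecKO. Its highest ecKO value, ecKO 3, came close to the lowest control, and the log2 fold change was -0.77 (SE 0.32, adjusted p = 0.193), from -1.13 without ecKO 3 to -0.53 without ecKO 1. The *Col1a1* groups overlapped when control 1 or control 2 was left out. *Col3a1*, the single chain of type III collagen of soft, distensible tissue, was at 1342, 1997 and 1452 CPM against 899, 1115 and 1123 CPM. Here all 3 ecKO uteri were below the controls, with a log2 fold change of -0.61 (SE 0.27, adjusted p = 0.206), from -0.70 to -0.38 with 1 uterus left out (the latter without control 2). *Col1a2*, the partner chain of *Col1a1*, overlapped because ecKO 3 (667 CPM) exceeded 2 of the controls (645 and 459 CPM), and its log2 fold change of -0.49 (edgeR adjusted p = 0.39) ran from -0.84 without ecKO 3, when the groups did not overlap, to -0.23 without control 2.

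Type V collagen, which sits in the core of the fibrils and limits their width, had greater fold changes than types I and III. *Col5a1* was at 79.9, 113 and 124 CPM in the controls, against 32.3, 51.9 and 70.4 CPM in the ecKO, a log2 fold change of -1.03 (SE 0.31, adjusted p = 0.114). *Col5a3* was at 10.1, 16.5 and 17.00 CPM against 1.90, 6.00 and 7.83 CPM, with -1.46 (SE 0.50, adjusted p = 0.14) and a range from -1.84 without ecKO 3 to -1.06 without ecKO 1. Both sets of ecKO values lay under all controls, and ecKO 1 was the lowest. For *Col5a2* the values were 97.9, 143 and 205 CPM against 60.8, 99.5 and 70.8 CPM. Control 1 and ecKO 2 crossed by a small margin, and the log2 fold change was -0.95 (SE 0.30, adjusted p = 0.126). The TPM ratio of *Col5a1* to *Col1a1* was 0.198, 0.201 and 0.368 in the controls and 0.193, 0.190 and 0.181 in the ecKO, and control 3 stood apart from the other 5 uteri. The ratio of *Col3a1* to *Col1a1* was 2.12, 2.61 and 2.45 in the controls and 3.58, 3.31 and 1.96 in the ecKO, and these overlapped.

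Collagen VI, a beaded microfibril next to cells, had the median log2 fold change closest to 0 of the classes, -0.28. Scaled to stromal markers it was 0.43, where the median of all genes was 0.65. None of its 3 genes had groups that did not overlap, 0 reached an unadjusted p under 0.05 (edgeR), and 0 were past an adjusted p of 0.05 by DESeq2. The shares of all genes, lower and higher, were 15.6% and 15.7%, 12.9% and 12.1%, and 6.59% and 6.73% in that order. With 3 genes, a count of 0 is close to these shares. *Col6a1* was at 325, 536 and 449 CPM in the controls, against 229, 434 and 413 CPM in the ecKO, and *Col6a2* followed it closely. The TPM ratio of *Col6a1* to *Col6a2*, chains of the same trimer, stayed between 0.767 and 0.951 in all 6 uteri. *Col6a3* had its highest value of all in ecKO 3 (129 CPM) and its lowest in ecKO 1 (24.8 CPM). *Col6a1*, *Col6a2* and *Col6a3* had log2 fold changes of -0.28, -0.27 and -0.44, with adjusted p of 0.578, 0.538 and 0.617. With 1 uterus left out *Col6a1* ran from -0.44 to -0.04 and *Col6a2* from -0.42 to -0.06, and *Col6a3* ran from -1.22 without ecKO 3 to -0.03 without ecKO 1.

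Among the collagens that coat fibrils or form short chains, *Col14a1* and *Col16a1* had groups that did not overlap (lower, against 15.6% of all genes). *Col14a1*, which binds the surface of type I fibrils, was at 52.8, 58.6 and 41.6 CPM in the controls, against 22.5, 21.1 and 29.3 CPM in the ecKO. All 3 ecKO values lay well under the lowest control, with a log2 fold change of -1.07 (SE 0.21, adjusted p = 0.0684) by edgeR and an adjusted p of 0.00141 by DESeq2. *Col16a1*, a minor fibril-associated collagen, was at 46.8, 59.1 and 84.5 CPM against 19.4, 27.8 and 32.6 CPM, with -1.25 (SE 0.28, adjusted p = 0.0821). *Col12a1*, a relative of *Col14a1*, went the other way on average. It was at 5.99, 4.97 and 7.60 CPM in the controls, against 2.71, 9.69 and 32.00 CPM in the ecKO, so that its log2 fold change of 1.27 (SE 0.76, adjusted p = 0.331) rested on ecKO 3 and was 0.05 without it. *Col8a1*, a short-chain collagen of vessel walls, was low throughout (0.633 to 8.37 CPM) and its groups overlapped, with a log2 fold change of -1.08 that ran from -1.57 without ecKO 3 to -0.25 without control 1.

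Among 27 enzymes and chaperones that make collagen, all tested, 0 were called by edgeR (8 lower and 0 higher by DESeq2, against 6.59% and 6.73% of all genes). At an unadjusted p under 0.05 (edgeR) 11 were lower and 2 higher, against 12.9% and 12.1% of all genes. The groups did not overlap in 13 (lower) and 1 (higher), against 15.6% and 15.7%. *Fkbp10*, a prolyl isomerase that assists procollagen folding, was at 80.9, 79.3 and 95.1 CPM in the controls, against 26.00, 43.7 and 42.5 CPM in the ecKO, with a log2 fold change of -1.19 (SE 0.23, adjusted p = 0.0677). *Plod3*, a lysyl hydroxylase, had -0.82 (SE 0.18, adjusted p = 0.0766), and *Crtap*, a subunit of the prolyl 3-hydroxylase complex, had -0.82 (SE 0.18, adjusted p = 0.0787). In all 3 the groups did not overlap, but this was a condition for naming them. The same condition held for genes named from the other lists of related genes outside the 42. Of 16 other interstitial collagens tested, 4 were lower and 0 higher at an unadjusted p under 0.05 (edgeR), beside 12.9% and 12.1% of all genes. By edgeR 0 were called (2 by DESeq2, lower, against 6.59% of all genes). With all uteri *Col27a1* had the greatest of their non-overlapping differences, at 3.20, 3.32 and 13.5 CPM in the controls, against 1.45, 1.61 and 1.12 CPM in the ecKO. Control 3 stood far above the other controls, and the order without it was not tested. *Col11a1* and *Col13a1* had log2 fold changes of -0.94 and -1.19 (edgeR adjusted p = 0.112 for *Col27a1* and 0.169 for *Col11a1*). *Col13a1* is among the 4, but like *Has1* it reached the filter on low counts only through the controls (0.769, 0.463 and 0.467 CPM against 0.181, 0.231 and 0.332 CPM), so that its value is a description.

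The small leucine-rich proteoglycans had a median log2 fold change of -0.55 (0.28 when scaled to stromal markers, beside 0.65 for all genes), and only decorin of the 7 had groups that did not overlap (lower, against 15.6% of all genes). *Dcn*, which binds type I collagen and holds transforming growth factor beta, was at 594, 644 and 460.3 CPM in the controls, against 393, 308 and 434 CPM in the ecKO, with a log2 fold change of -0.58 (SE 0.22, adjusted p = 0.165). Biglycan (*Bgn*), its close relative, was at 145, 155 and 98.6 CPM against 80.8, 101 and 75.6 CPM, with -0.63 (SE 0.22, adjusted p = 0.144), and here control 3 lay just under ecKO 2. Lumican (*Lum*), 42834 bases from *Dcn* on chromosome 10, was at 150.3, 143 and 99.01 CPM against 50.3, 57.8 and 160.3 CPM. Its ecKO 3 value was the highest of all 6, and its log2 fold change ran from -1.25 without ecKO 3 to -0.26 without ecKO 1. Osteoglycin (*Ogn*) and asporin (*Aspn*), 40291 bases apart on chromosome 13, were also highest in ecKO 3, at 61.6 CPM and 26.5 CPM, and 16.5% of the 75-base stretches of *Ogn* are shared with *Cenpp* on the opposite strand. Fibromodulin (*Fmod*) and *Prelp* were instead lowest in control 3, at 1.93 CPM and 9.80 CPM, and both other controls lay above the ecKO values. The log2 fold changes of these overlapping genes were -0.55 (*Lum*), -0.33 (*Ogn*), 0.23 (*Aspn*), -0.78 (*Fmod*) and -0.35 (*Prelp*), and with 1 uterus left out *Aspn* ran from -1.41 (without ecKO 3) to 0.72, *Ogn* from -1.004 (without ecKO 3) to -0.0067, *Prelp* from -0.74 to 0.24 (without control 1) and *Fmod* from -1.22 to -0.25 (without control 1). Of 6 other genes of the family tested, 0 were called by edgeR or DESeq2 and 1 was lower at an unadjusted p under 0.05 (12.9% of all genes were), *Chadl*, with a log2 fold change of -1.30 (SE 0.53, adjusted p = 0.187).

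**Figure D3:**
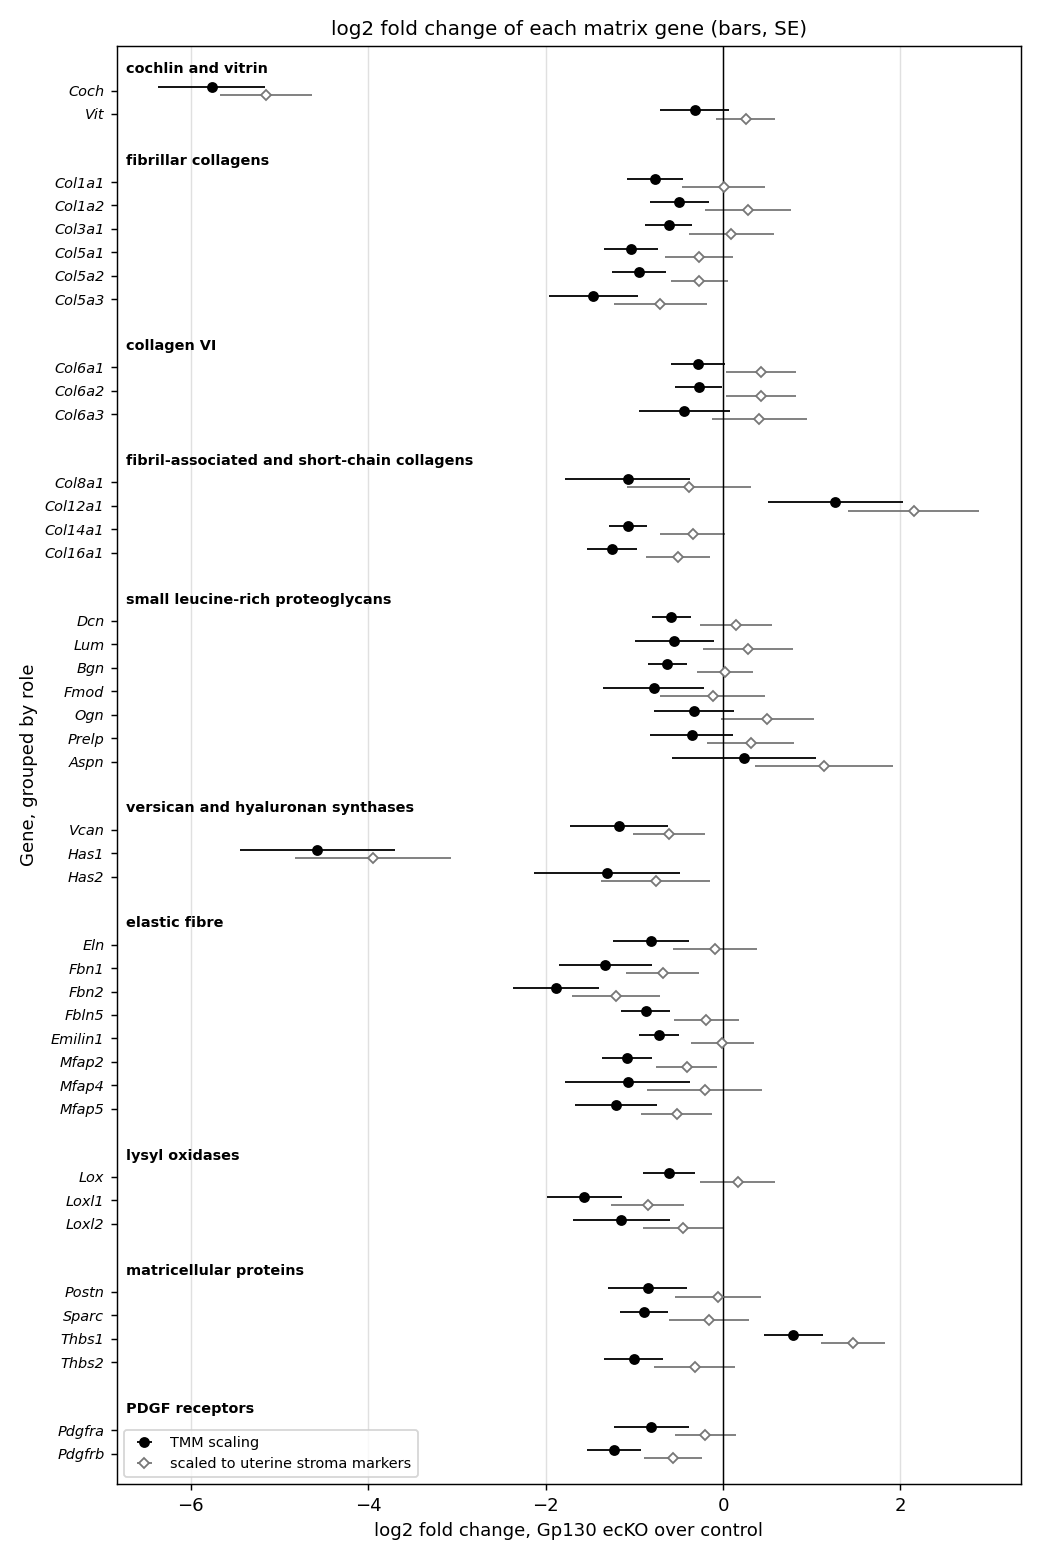
log2 fold change of *Gp130* ecKO over control for each of the 42 genes with its SE from edgeR, from TMM scaling (black) and after the libraries were scaled to 8 stromal marker genes (grey, open). With TMM 39 of the 42 are below 0, and after the stromal scaling, where the median of all genes is 0.65, 26 are, with *Coch* and *Has1* still far to the left.

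Hyaluronan is made at the cell surface by the Has enzymes and is bound in the matrix by versican. *Has1* (ENSMUSG00000003665, at chr17:18063585-18075467 on the minus strand) was at 2.02, 0.694 and 3.87 CPM in the controls, against 0.181, 0.0385 and 0.0415 CPM in the ecKO, or 50, 18 and 58 counts against 4, 1 and 1. The groups did not overlap, but the ecKO values rested on 6 counts in all. The summed counts were 126 against 6. Scaled to TMM-corrected library sizes, they gave a control to ecKO ratio of 23.1 (exact 95% interval 10.3 to 64.2, for counting error only). Because *Has1* passed the filter only through the group in which it is high, and was not tested when 1 CPM was required in 3 uteri, its fitted log2 fold change of -4.58 (SE 0.87) is given as a description, and its p-values support nothing. It ran from -5.54 without ecKO 1 to -3.94 without control 3. *Has2*, the more abundant synthase, was at 5.06, 10.99 and 31.9 CPM in the controls, against 5.38, 12.04 and 1.66 CPM in the ecKO. It overlapped widely, being highest in control 3 and lowest in ecKO 3, with -1.31 (SE 0.82, adjusted p = 0.35), or -0.33 without control 3 and -2.17 without ecKO 2. Versican (*Vcan*) was at 58.5, 48.2 and 122 CPM against 23.3, 61.9 and 16.2 CPM, with -1.17 (SE 0.55, adjusted p = 0.234), and ecKO 2 was above 2 of the controls, and it ran from -1.94 without ecKO 2 to -0.66 without control 3.

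Of the 18 other genes of hyaluronan supply, binding and breakdown that were tested, 0 were called. By DESeq2 3 were lower and 2 higher (against 6.59% and 6.73% of all genes). At an unadjusted p under 0.05 4 were lower and 3 higher (edgeR, against 12.9% and 12.1% of all genes). *Stab1*, a clearance receptor of endothelium and macrophages, had a log2 fold change of -1.08 (SE 0.23, adjusted p = 0.077). *Hapln3*, a link protein that ties versican to hyaluronan, was at 7.04, 5.28 and 3.93 CPM in the controls, against 1.04, 2.27 and 1.24 CPM in the ecKO, with -1.83 (SE 0.42, adjusted p = 0.0848). *Ugp2*, which makes the UDP-glucose used for glycogen as well as for hyaluronan, was higher in all 3 ecKO uteri, at 163, 289.9 and 149.6 CPM against 501, 428 and 649 CPM, with 1.39 (SE 0.30, adjusted p = 0.0802).

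All 8 elastic fibre genes had log2 fold changes below 0, and in 4 of them the groups did not overlap (all lower, against 15.6% of all genes). Fibrillin 2 (*Fbn2*), the fibrillin of developing tissue, was at 9.95, 5.71 and 17.3 CPM in the controls, against 1.85, 3.92 and 3.07 CPM in the ecKO, with a log2 fold change of -1.88 (SE 0.48, adjusted p = 0.0953). *Mfap2*, a small glycoprotein bound to fibrillin microfibrils, was at 19.6, 34.8 and 31.3 CPM against 11.6, 16.6 and 12.3 CPM, with -1.08 (SE 0.28, adjusted p = 0.0956). These 2 had every ecKO uterus below every control. Fibulin 5 (*Fbln5*), needed to place elastin on microfibrils, was at 64.8, 60.1 and 37.7 CPM against 21.4, 34.1 and 33.5 CPM, with -0.87 (SE 0.28, adjusted p = 0.124). *Emilin1*, found where elastin meets the microfibril, was at 63.8, 64.3 and 52.01 CPM against 26.2, 38.6 and 44.4 CPM, with -0.72 (SE 0.23, adjusted p = 0.122). In both the gap between the groups was small. Fibrillin 1 (*Fbn1*) was at 41.99, 104 and 184 CPM against 36.2, 64.99 and 30.1 CPM, with -1.33 (SE 0.52, adjusted p = 0.176) and a range from -1.72 without ecKO 2 to -0.74 without control 3, and 19.5% of its 75-base stretches are shared with a gene on the opposite strand. Control 1 lay within the ecKO range for *Fbn1*, and likewise for *Mfap5* (21.6, 55.3 and 87.5 CPM against 24.8, 28.3 and 18.03 CPM). Elastin (*Eln*) overlapped because control 3, at 18.3 CPM, was the lowest of all, and *Mfap4* because ecKO 3, at 32.4 CPM, was above control 1 and control 3 (13.4 and 23.5 CPM), while control 2, at 75.5 CPM, was the highest of all. *Eln*, *Mfap4* and *Mfap5* had log2 fold changes of -0.81, -1.07 and -1.21, with adjusted p of 0.276, 0.371 and 0.168. Without control 2 *Mfap4* was at -0.0017, so that its difference rested on that uterus, and without ecKO 3, when the groups did not overlap, it was at -1.81. With 1 uterus left out *Eln* ran from -1.18 to -0.54 and *Mfap5* from -1.56 to -0.70.

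Lysyl oxidases cross-link collagen and elastin, and *Loxl1*, the form tied to elastic fibres, differed most among the 3 members. It was at 18.9, 38.6 and 60.01 CPM in the controls, against 9.31, 16.6 and 13.8 CPM in the ecKO, the groups did not overlap, and the log2 fold change was -1.56 (SE 0.43, adjusted p = 0.103). *Lox* was at 21.4, 31.4 and 21.9 CPM against 14.1, 12.4 and 22.6 CPM, with -0.61 (SE 0.29, adjusted p = 0.242) (from -0.89 without ecKO 3 to -0.37 without control 2), and ecKO 3 was above control 1 and control 3. *Loxl2* had -1.15 (SE 0.54, adjusted p = 0.237) with overlapping groups (from -1.52 without control 1 to -0.54 without control 3), and its value is uncertain because 41.8% of its 75-base stretches occur in another gene on the same strand. Of 16 further elastic fibre and cross-linking genes tested, 0 were called (4 lower and 2 higher by DESeq2, against 6.59% and 6.73% of all genes). At an unadjusted p under 0.05 6 were lower and 3 higher (edgeR, against 12.9% and 12.1% of all genes). *Loxl4*, a lysyl oxidase outside the 42 genes, was at 1.01, 0.617 and 0.667 CPM in the controls, against 2.17, 4.04 and 3.81 CPM in the ecKO, with a log2 fold change of 2.11 (SE 0.43, adjusted p = 0.0727). It stood opposite to *Loxl1*, with all 3 ecKO uteri above the controls. *Efemp2* (fibulin 4), which brings lysyl oxidase to elastin, had -1.12 (SE 0.23, adjusted p = 0.0737), and *Ltbp3*, which stores transforming growth factor beta in the matrix, had -0.71 (SE 0.20, adjusted p = 0.107).

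The 4 matricellular genes, whose products act on cells more than they bear load, all had groups that did not overlap, with 3 lower and 1 higher in the ecKO (against 15.6% and 15.7% of all genes). Only *Sparc* and *Thbs2* kept separate groups under DESeq2's median-ratio (RLE), upper quartile and total scalings alike. Of the 4 only *Thbs1* did when scaled to stromal markers, where 40.9% of all genes were separate and higher. *Sparc*, a collagen-binding glycoprotein and the most abundant of the 42 genes by TPM, was at 958, 1050 and 715 CPM in the controls, against 366, 468 and 634 CPM in the ecKO. Its log2 fold change was -0.89 (SE 0.27, adjusted p = 0.119) by edgeR. Periostin (*Postn*) was at 72.1, 61.8 and 62.9 CPM against 14.6, 33.9 and 60.9 CPM, with -0.85 (SE 0.45, adjusted p = 0.274), and the groups overlapped with RLE scaling and when control 1 or control 2 was left out. Its log2 fold change ran from -1.40 without ecKO 3 to -0.46 without ecKO 1. Thrombospondin 2 (*Thbs2*) was low, at 6.39, 8.79 and 4.87 CPM against 2.85, 3.42 and 3.73 CPM, with -1.01 (SE 0.33, adjusted p = 0.131). Thrombospondin 1 (*Thbs1*, ENSMUSG00000040152, at chr2:117941974-117957616), which restrains vessel growth and activates latent transforming growth factor beta, was at 90.7, 204 and 171 CPM in the controls, against 206, 355 and 247 CPM in the ecKO. The lowest ecKO value only just exceeded the highest control, with a log2 fold change of 0.79 (SE 0.33, adjusted p = 0.196), and the groups overlapped when libraries were scaled by the upper quartile or by totals. The close relatives *Thbs1* and *Thbs2* stood on opposite sides. Of 21 other matricellular genes tested, 0 were called by edgeR (3 lower by DESeq2, against 6.59% of all genes). At an unadjusted p under 0.05 (edgeR) 10 were lower and 0 higher (against 12.9% and 12.1% of all genes). *Ecm1* had -1.10 (SE 0.31, adjusted p = 0.107), *Ccn1*, a growth factor-inducible integrin ligand, -1.67 (SE 0.51, adjusted p = 0.119), and *Smoc2*, a relative of *Sparc*, -0.56 (SE 0.20, adjusted p = 0.154).

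The PDGF receptors are carried by stromal fibroblasts (*Pdgfra*) and by mural cells around vessels as well as fibroblasts (*Pdgfrb*). *Pdgfrb* was at 26.8, 40.3 and 53.2 CPM in the controls, against 14.6, 22.3 and 14.4 CPM in the ecKO, with a log2 fold change of -1.23 (SE 0.31, adjusted p = 0.0922) and no overlap. *Pdgfra* was at 72.7, 160.0 and 169 CPM against 74.3, 113 and 42.3 CPM, with -0.81 (SE 0.42, adjusted p = 0.273), and control 1 lay within the ecKO range. The *Pdgfra* value ran from -1.19 without ecKO 2 to -0.48 without ecKO 3. All 4 ligands were tested, and 0 were called (2 lower by DESeq2, against 6.59% of all genes). At an unadjusted p under 0.05 2 were lower (edgeR, against 12.9% of all genes). *Pdgfb*, the ligand that recruits mural cells to endothelium, was at 35.6, 23.1 and 24.3 CPM in the controls, against 4.66, 10.4 and 10.2 CPM in the ecKO, with -1.71 (SE 0.36, adjusted p = 0.0743). *Pdgfc*, a ligand of *Pdgfra*, was at 60.9, 42.8 and 57.4 CPM against 29.8, 39.7 and 28.2 CPM, with -0.72 (SE 0.22, adjusted p = 0.115).

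By level per length, *Sparc* (mean TPM 568, SD 90.5), *Dcn* (437, SD 59.0) and *Col3a1* (384, SD 89.2) led the list in the controls (n = 3), and they were again the top 3 in the ecKO with 323 (SD 69.0), 307 (SD 26.4) and 269 (SD 46.4). The next 4 in the controls, *Col6a2* (164), *Col1a2* (161), *Col1a1* (160, SD 21.8) and *Col6a1* (142), did not differ from each other beyond their SDs. *Coch* at 110 and *Mfap5* at 105 (SD 65.8) followed. *Thbs1* was at rank 18 in the controls and at rank 8 in the ecKO (35.5 TPM, SD 14.2, against 65.1 TPM, SD 24.1), while *Has1* was at rank 40 in the controls and last, at rank 42, in the ecKO (1.44 TPM against 0.06 TPM). The 42 genes together held 0.263%, 0.338% and 0.298% of all TPM in the controls and 0.154%, 0.212% and 0.209% in the ecKO. These shares did not overlap, and without *Coch* they were 0.250%, 0.333% and 0.283% against 0.154%, 0.212% and 0.209%.

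**Figure D4:**
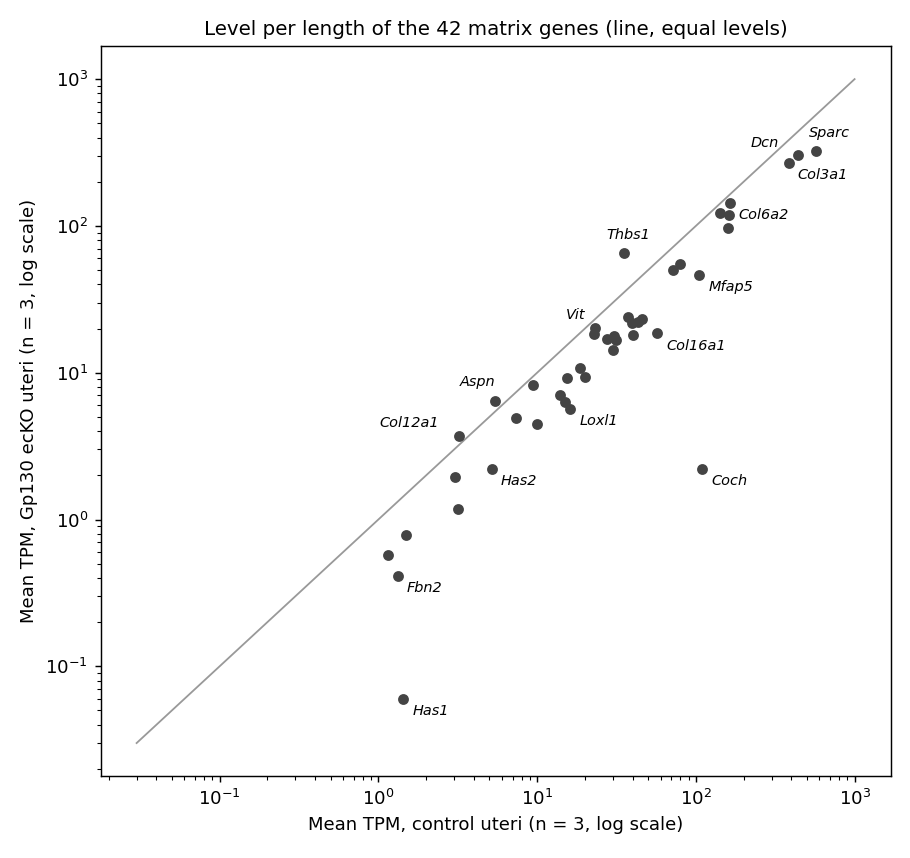
Mean TPM of each of the 42 genes in the control uteri (horizontal) and the *Gp130* ecKO uteri (vertical), n = 3 each, both axes logarithmic; the grey line marks equal levels. Most genes run just under the line, *Coch* (110 against 2.21) and *Has1* (1.44 against 0.06) lie far below it, and *Thbs1* (35.5 against 65.1) lies above.

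The ecKO uteri differed among themselves in a way that ran through many genes. Of the 42 genes, 22 were highest in ecKO 3 among the ecKO uteri, including *Col1a1*, *Col1a2*, *Col12a1*, *Lum*, *Ogn*, *Aspn*, *Eln*, *Lox* and *Postn*. Another 17 were highest in ecKO 2, including *Vcan*, *Has2*, *Fbn1*, *Mfap5*, *Loxl1*, *Pdgfra*, *Pdgfrb* and *Vit*, and 26 were lowest in ecKO 1. The smooth muscle markers, 10 genes summed, were at 3015, 2347 and 778 CPM in the controls, against 583, 1081 and 3253 CPM in the ecKO. They were thus highest in ecKO 3 and low in control 3 and ecKO 1. None of the 10 reached an unadjusted p under 0.05 between the groups (edgeR, against 12.9% of all genes lower and 12.1% higher). By DESeq2 at an adjusted p under 0.05 there were 0, against 6.59% and 6.73%. *Acta2* was at 986, 626 and 169.8 CPM against 146, 286 and 1098 CPM and *Tagln* at 862, 673 and 119 CPM against 136, 244 and 786 CPM. The part of muscle in the matrix values was not tested.

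Marker genes of the stroma itself also stood lower in the ecKO. The 8 uterine stroma markers summed to 1796, 1731 and 1802 CPM in the controls, against 816, 1224 and 898 CPM in the ecKO. At an unadjusted p under 0.05 (edgeR) 6 of the 8 were lower and 1 higher (against 12.9% and 12.1% of all genes). By edgeR 0 were called (5 lower by DESeq2, against 6.59% of all genes). Their median log2 fold change was -0.94, beside -0.86 for the 42 matrix genes. *Vim* was at 1041, 885 and 788 CPM against 299, 534 and 502 CPM and *Hoxa10* at 223, 269.7 and 289 CPM against 132, 192 and 115 CPM. The 1 higher was *Ncam1*, named after its values were seen, at 9.22, 12.1 and 5.53 CPM against 65.0, 15.2 and 8.54 CPM. Its groups overlapped, with a log2 fold change of 1.72 (SE 0.73, edgeR adjusted p = 0.197), and it is among the markers used for the stromal scaling. Epithelial markers stood the other way, with 5 of 10 higher and 0 lower at an unadjusted p under 0.05 (edgeR, against 12.1% and 12.9% of all genes). By edgeR 0 were called, and by DESeq2 5 were higher (against 6.73% of all genes). Their sums were 4035, 4341 and 2580 CPM against 7794, 5949 and 6039 CPM. *Cldn3* was at 848, 1066 and 376 CPM against 1429, 1308 and 1192 CPM, and *Cdh1* at 699, 733 and 615 CPM against 1219, 1131 and 887 CPM.

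Of the vascular markers, 6 of 8 for endothelium and 5 of 6 for pericytes were lower at an unadjusted p under 0.05 (edgeR, against 12.9% of all genes). At that p 0 were higher (against 12.1%), and 0 were called (5 and 4 lower by DESeq2, against 6.59% of all genes). Endothelial sums were 1217, 779 and 441 CPM in the controls, against 267, 439 and 409 CPM in the ecKO, with *Pecam1* and *Cdh5* at log2 fold changes of -1.20 and -0.94. Pericyte sums were 229.7, 465 and 455 CPM against 110.0, 199.9 and 131 CPM, with *Rgs5* and *Notch3* at -1.48 and -0.87. Of 7 macrophage markers tested 1 was lower (*Mrc1*, -1.28) and of 6 mesothelium markers 2 were (*Wt1*, -1.36, and *Gpm6a*, -1.19), while of 5 red blood cell markers 0 were, by edgeR at the same unadjusted p, against 12.9% of all genes. *Mrc1* and *Gpm6a* were named after their values were seen. Among the markers with the highest mean CPM in these lists, *C1qa* and *C1qb* (-0.76 and -0.91), *Upk3b* (-0.83), *Hbb-bs* (-0.84) and *Hba-a2* (-0.95) did not reach that p. Of the 7 macrophage markers, 6 had log2 fold changes below 0 and 1 above. The 1 above was *Cd68* (0.39, SE 0.38), with overlapping groups, also named after its values were seen. By staining, the study counted significantly more macrophages in the ecKO stroma than in the control. The marker values here are not counts of cells. The stroma, endothelium and pericyte markers stood lower together with the matrix genes, and their part in the result was not tested beyond the scaling that follows.

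**Figure D5:**
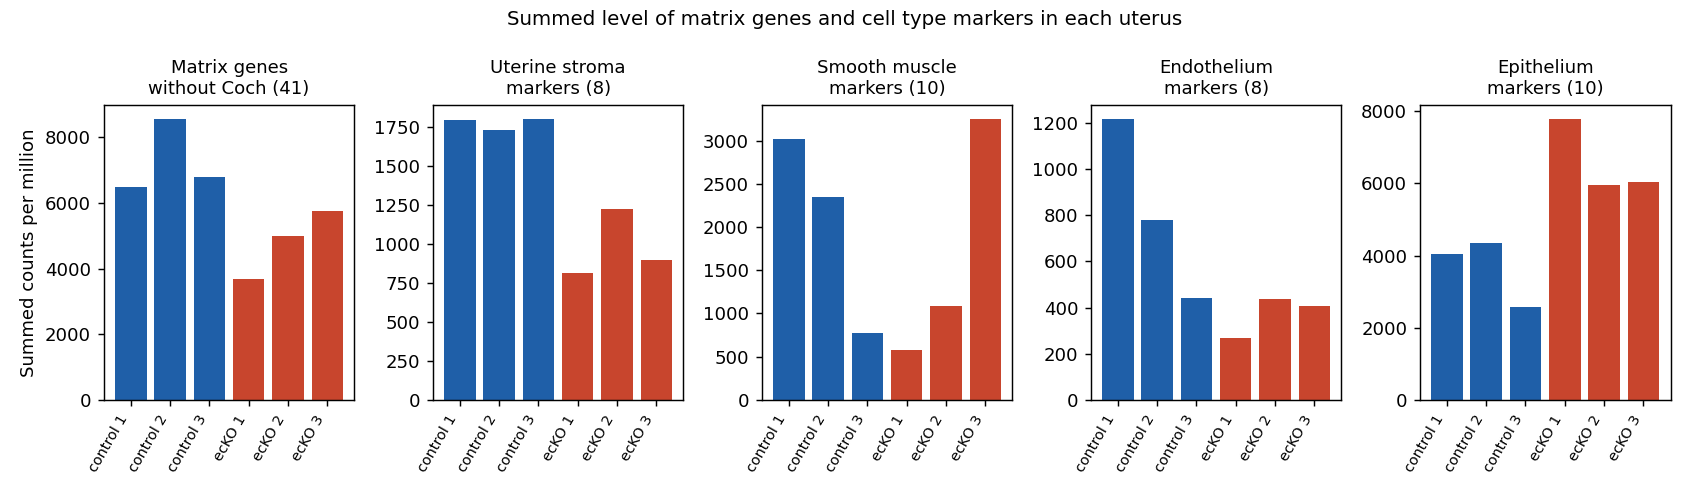
Summed CPM in each uterus of the matrix genes without *Coch* and of 4 marker lists, as bars from 0, control in blue and *Gp130* ecKO in red. The matrix genes and the stroma markers are lower in every ecKO uterus than in every control, the epithelium markers are higher, and the smooth muscle markers follow single uteri instead (highest in ecKO 3 at 3253 CPM).

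When the libraries were scaled to the geometric mean of the 8 stroma markers, an alternative added after the data were seen, most matrix genes had groups that overlapped. The median log2 fold change of the 42 genes was then -0.17 and that of all genes 0.65. At an unadjusted p under 0.05 (edgeR) 3 of the 42 were lower and 2 higher, against 1.9% and 37.3% of all genes. *Coch* remained lower, with a log2 fold change of -5.15 (SE 0.52, edgeR adjusted p = 0.000846), and *Has1* was at -3.95 (SE 0.88), given as a description. In both the groups still did not overlap. *Thbs1* was higher, with 1.46 (SE 0.36, edgeR adjusted p = 0.0198). No other of the 42 genes had groups that did not overlap under this scaling, beside 1.89% of all genes in the lower direction and 40.9% in the higher. *Fbn2* was the next lowest at -1.20 (SE 0.50, edgeR adjusted p = 0.0947). The median of each class lay below that of all genes. It was 0.43 for collagen VI and 0.28 for the small leucine-rich proteoglycans, and below 0 for the fibrillar collagens (-0.13), the fibril-associated and short-chain collagens (-0.36), versican with the synthases (-0.76), the elastic fibre genes (-0.31), the lysyl oxidases (-0.45), the matricellular genes (-0.11) and the PDGF receptors (-0.38). Scaled in this way, *Coch* was lower relative to the stromal markers. *Col1a1* (0.01, SE 0.47), *Col3a1* (0.09, SE 0.48) and *Dcn* (0.15, SE 0.41) had values near 0 with large errors. That does not show that they were unchanged. Stroma-scaled CPM of *Col1a1* were 577, 653 and 467 in the controls, against 336, 359 and 1013 in the ecKO. There ecKO 3 stood above every control, and ecKO 1 and ecKO 2 stood below every control. The 8 markers include *Ncam1*, which went the other way with TMM (log2 fold change 1.72), and a scaling without it was not run.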

How the data were processed

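Poly(A) RNA of 6 uteri was sequenced as 75-base single reads from a strand-specific kit. The authors trimmed reads with fastp 0.23.2, removed ribosomal reads, aligned to GRCm39 with STAR 2.7.10a and estimated levels per gene with RSEM 1.3.3; the annotation release and strand setting are not given in the sources used here. The deposited expected counts were rounded and tested with edgeR 4.0.16 (R 4.3.3) after filterByExpr and TMM, with glmQLFit on the 2 groups and Benjamini-Hochberg adjustment. The deposited TPM values were used as levels only. Gene symbols came from GENCODE M39. Library totals ran from 13960748 to 25906443, and a low gene such as *Has1* rests on few counts. Alternatives were DESeq2 1.42.0, limma 3.58.1 (voom), edgeR's legacy, exact and likelihood ratio tests, other scalings and filters, unrounded counts, a replicate block and leaving out each uterus. The scaling to 8 stromal markers used a pseudocount of 0.5. The groups are those of the labels. The 42 genes and the other lists were chosen with earlier results of these data known. Named were all 42 genes, *Il6st*, up to 3 genes of each pathway list (smallest unadjusted p among non-overlapping genes) and the 2 of each marker list with the highest mean CPM. By TPM the order within the marker lists differs. With 3 against 3 uteri an exact permutation test could not reach 0.05, so none was run.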

Additional observations from a re-analysis of the deposited data

How the results depend on the processing

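Of all genes, 26 were called, against 7 (edgeR legacy), 1239 (exact test), 1317 (likelihood ratio), 1542 (DESeq2), 105 (no filter), 6 (replicate block), 3039 (stromal scaling) and 1 to 897 when 1 uterus was left out, the highest without control 2. Members at an unadjusted p under 0.05 numbered 21, and 12 to 23 when 1 uterus was left out (12 without control 2) and 5 with the stromal scaling, which left 3 in place of 19 with groups that did not overlap. With that scaling, 1.9% of all genes were lower and 37.3% higher at that p (edgeR), in place of 12.9% and 12.1%. Groups did not overlap in 1.89% (lower) and 40.9% (higher) of all genes, in place of 15.6% and 15.7%. *Coch* kept its direction in every alternative run, at -5.76 (legacy, adjusted p = 0.0505), -5.71 (replicate block, adjusted p = 0.0587) and -6.18 to -5.39 with 1 uterus left out. *Il6st* was at -0.67 by DESeq2 (adjusted p = 0.0352) and at 0.0093 with the stromal scaling. The replicate block was run because groups share numbers, but same-numbered uteri did not deviate together (correlations 0.104, 0.069 and -0.196); with it 19 members had an unadjusted p under 0.05. *Aspn* turned to -0.5262 with voom and -0.5285 with the block and ranged from -1.41 to 0.72 with 1 uterus left out, and *Prelp* from -0.74 to 0.24. With the stromal scaling, which moved the median of all genes from -0.05 to 0.65, *Vit* turned to 0.26, *Col1a1* to 0.0096, *Col1a2* to 0.28, *Col3a1* to 0.0943, *Col6a1* to 0.43, *Col6a2* to 0.43, *Col6a3* to 0.41, *Dcn* to 0.15, *Lum* to 0.28, *Bgn* to 0.0203, *Ogn* to 0.50, *Prelp* to 0.31 and *Lox* to 0.16. As a share of expected counts in place of TPM the 42 genes held 0.7595% in the controls and 0.4727% in the ecKO. The causes of these shifts were not tested. Control 3 had the fewest counts, which limits genes such as *Fmod* and *Col8a1*.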

Other observations

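Some matrix genes are neighbours in the genome (GRCm39), and their values are set side by side here. Whether neighbours differed from each other was not tested. *Col3a1* and *Col5a2* are 16713 bases apart on chromosome 1 and on opposite strands, with log2 fold changes of -0.61 (SE 0.27) and -0.95 (SE 0.30). *Prelp* and *Fmod* are 107020 bases apart on chromosome 1, with -0.35 (SE 0.47) and -0.78 (SE 0.57). *Col6a2* and *Col6a1* are 83890 bases apart on chromosome 10, with -0.27 and -0.28. *Dcn* and *Lum*, 42834 bases apart, had -0.58 and -0.55, and the TPM ratio of *Dcn* to *Lum* was 5.57, 6.36 and 6.56 in the controls and 11.01, 7.53 and 3.82 in the ecKO. *Aspn* and *Ogn*, 40291 bases apart on chromosome 13, had 0.23 (SE 0.81) and -0.33 (SE 0.45).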
